A study of Mus musculus with 12 samples.

Results

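Id1, Id2 and Id4 encode inhibitors of DNA binding, and they were 3 of the 770 genes read on a NanoString mouse cancer pathway panel in 12 samples. They were taken by gene symbol and were chosen with their measured values known, the scatter of Id4 among the medulloblastomas included, so their group differences are given as a description, with no p-value. Id3, the remaining member of the family, was not on the panel.

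The samples were 5 RBS lesions, 4 control eyes and 3 Shh-MBs, each from a single mouse. RBS lesions were eyes of Rax-creERT2::Ctnnb1(ex3)Fl/+SmoM2Fl/+ mice at E18.5, after tamoxifen at E8.5, and lesion tissue had replaced most of the regular eye. In these mice an inducible Cre under the control of Rax, a gene of the early eye field, stabilizes β-catenin by deletion of exon 3 of Ctnnb1 and switches on SmoM2, a constitutively active form of the Hedgehog transducer Smo. Control eyes came from E18.5 mice with the same Ctnnb1(ex3)Fl/+SmoM2Fl/+ alleles but without Cre. The methods describe tamoxifen given to the pregnant mothers and, for protein samples, control eyes of littermates, without saying which litters the control eyes measured here came from. Shh-MBs were cerebellar tumors of hGFAP-cre::SmoM2Fl/+ mice at 14 days, so the tumors differed from both kinds of eye in tissue, age and genotype at once, and these cannot be told apart. These are bulk samples, in which fewer cells of a type and less RNA per cell cannot be told apart either.

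Id proteins carry a helix-loop-helix domain without the basic region that contacts DNA. They pair with E proteins and other basic helix-loop-helix (bHLH) factors and keep them from binding E-boxes, which holds back differentiation in many progenitor cells. Id1 and Id2 are well known targets of bone morphogenetic protein (BMP) signaling through Smad factors. Id4 is the most divergent of the family, is expressed in the developing nervous system, and can act against the other Id proteins.

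For orientation on the genes themselves, the 250 bases before the start of Id2 and of Id4 are shown because both genes were measured here and moved differently between the groups. They were taken from RefSeq (GRCm38.p6), which held such a sequence for 2 of the 3 genes. They run 5′ to 3′ on the strand of the gene, at chr12:25096093-25096342 on the minus strand for Id2 and at chr13:48260866-48261115 on the plus strand for Id4. Capitals mark GGCGCC, a palindrome that occurs in BMP-responsive Smad elements.
Id2: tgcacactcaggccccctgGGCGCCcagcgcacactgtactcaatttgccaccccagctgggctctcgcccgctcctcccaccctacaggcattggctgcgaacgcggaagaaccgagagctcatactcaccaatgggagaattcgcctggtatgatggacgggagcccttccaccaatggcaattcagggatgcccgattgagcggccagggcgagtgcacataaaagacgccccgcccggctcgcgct
Id4: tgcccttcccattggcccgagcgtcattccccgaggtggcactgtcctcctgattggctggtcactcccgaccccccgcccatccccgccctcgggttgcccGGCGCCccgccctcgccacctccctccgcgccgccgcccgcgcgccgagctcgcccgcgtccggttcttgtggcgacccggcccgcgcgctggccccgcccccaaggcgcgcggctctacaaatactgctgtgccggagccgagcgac
Each window held 1 match to GGCGCC, 231 bases before the start in Id2 and 148 bases before it in Id4, and 9.59% of all 32851 windows of this length held at least 1. Both windows were richer in G and C than the median window of 52.4%, with 62.8% in Id2 and 75.6% in Id4, and the share of windows with this motif was not corrected for base composition. The E-box letters CANNTG occurred in 1 place in the window of Id2 and not in that of Id4, against 66.2% of all windows. CCAAT, read on both strands like every motif here, was found 3 times in Id2 and 2 times in Id4, and 33.8% of windows held it. Neither the Gli letters TGGGTGGTC (0.225% of windows) nor the Tcf/Lef letters CTTTGA (13.8%) were found in either window. A match is a description of the letters and not of factor binding.

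Values are normalized signals, that is, probe counts above background after scaling by 1 factor per sample, and differences are on the log2(signal + 1) scale with the standard error (SE) of a limma fit over all 770 genes. Depth was 335351 to 716967 counts above background per sample. Levels of different genes were not compared, because each probe has its own efficiency. Ctnnb1 was 0.48 higher in RBS than in control eyes (SE 0.0746, limma adjusted p = 0.00063), and Smo differed by 0.18 (SE 0.0963, adjusted p = 0.164). Where the probes lie relative to exon 3 and to the SmoM2 change was not given, so neither gene checks the genotypes. The 3 comparisons below share their samples pairwise.

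Id4 separated the RBS lesions from everything else. Its signal in the 5 RBS lesions was 7018, 7171, 7048, 8581 and 7947. In the 4 control eyes it was 728, 764, 688 and 698. The lowest lesion was thus 9.19-fold above the highest control eye, and within each group the values lay close together, with means of 7553 ± 689 (SD, n = 5) and 719 ± 34.2 (SD, n = 4). On the log2 scale Id4 was 3.39 higher in RBS (SE 0.0908), a 10.5-fold difference, and it ranked 3 from the top among the differences of the 770 genes in this comparison. On the deposited scale Id4 was the only one of the 3 Id genes past the adjusted threshold of 0.05 and the only one whose groups did not overlap. Id1 and Id2 each passed in 2 of 20 alternatives, both of them under median centring, Id1 also under quantile normalization and Id2 also without RBS 4. Of all genes tested, 51.2% passed that threshold and 43.4% had groups that did not overlap. Since the genes were chosen on these values, nothing is read from the counts. The Id4 difference lay between 3.21 and 3.42 in all 20 alternative settings tried, including other scalings and each left-out sample.

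**Figure D1:**
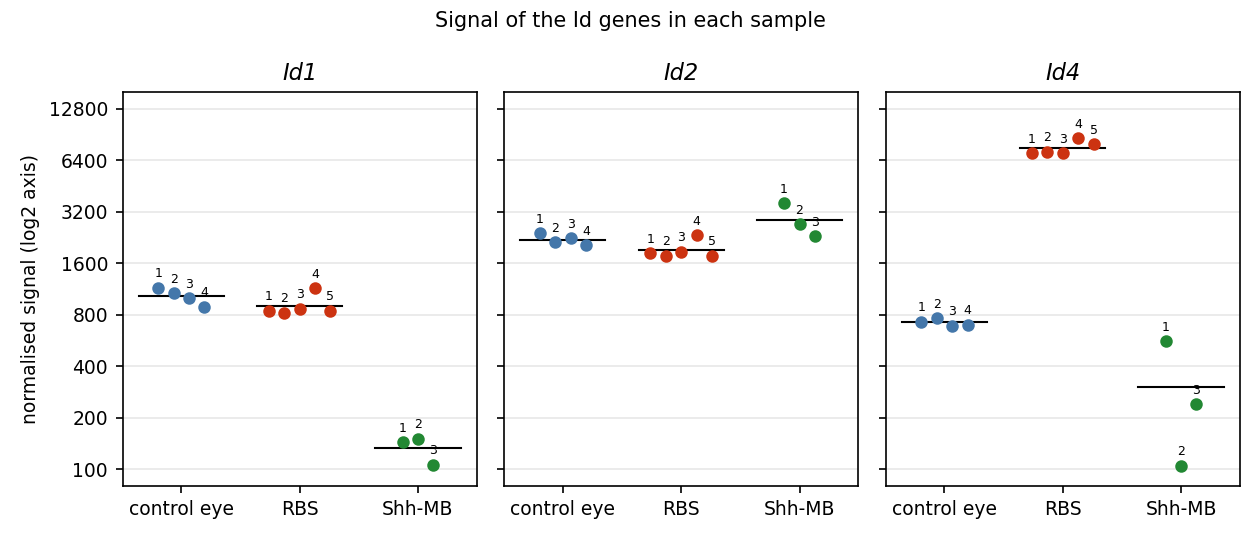
Normalized signal (log2 axis) of Id1, Id2 and Id4 in each control eye (blue, n = 4), RBS lesion (red, n = 5) and Shh-MB (green, n = 3), with the replicate number over each point and the group mean as a line. Id4 in RBS lies between 7018 and 8581, above all other samples, and in Shh-MB it spreads from 105 to 559, whereas Id1 is low in Shh-MB alone.

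In the 3 Shh-MBs, Id4 scattered widely. Its signal was 559 in Shh-MB 1, 105 in Shh-MB 2 and 240 in Shh-MB 3, a 5.35-fold range around a mean of 301 ± 233 (SD, n = 3). These signals corresponded to about 499, 112 and 283 counts above background, as estimated from the spacing of low values. All 3 tumors were below the lowest control eye, but Shh-MB 1 only by 1.23-fold. The group difference from control eyes was −1.57 (SE 0.514), and it rested on few samples: it was −0.97 without Shh-MB 2 and −2.17 without Shh-MB 1. Against RBS the tumors were far lower. The RBS lesions exceeded them by 4.96 on the log2 scale (SE 0.456), or 31.1-fold, and the lowest lesion was 12.6-fold above the highest tumor. This difference was 4.36 without Shh-MB 2, 5.56 without Shh-MB 1 and 4.11 after median centring of the samples.

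The spread of Id4 was large compared with that of other genes in the same tumors. Among the 352 genes with a mean signal of at least 100 in Shh-MB, the SD of the log2 values had a median of 0.153, and Id4, with 1.20, ranked 5. After the samples were centred on their median, its SD was 1.02 and its rank was again 5. Id1 (0.273, rank 69) and Id2 (0.323, rank 45) spread much less in these tumors. After the same centring they had an SD of 0.307 (rank 103) and 0.199 (rank 214). In the eyes Id4 was among the steadier genes, with an SD of 0.128 in RBS (rank 284 of 426) and of 0.0679 in control eyes (rank 376 of 413). After centring the SD of Id4 was 0.131 in RBS (rank 282) and 0.120 in control eyes (rank 323).

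Among the genes that spread more than Id4, 3 are given here, named by this ranking after the values were seen. Cacna2d2, which encodes a subunit of neuronal calcium channels, had signals of 315 in Shh-MB 1, 12.7 in Shh-MB 2 and 23.5 in Shh-MB 3. As for Id4, Shh-MB 1 was highest and Shh-MB 2 lowest. The phosphatase gene Ptprr (335, 46.4 and 35.4) and the T-type calcium channel gene Cacna1g (293, 36.1 and 38.0) were also highest in Shh-MB 1. The summed signal of the 5 measured neuronal marker genes was 551, 464 and 352 in the 3 tumors, highest in Shh-MB 1 but with another order of the other two. The 3 endothelial markers summed to 235, 129 and 155, in the order of Id4, and the 4 immune markers to 228, 127 and 111, also highest in Shh-MB 1. The 7 mesenchymal markers, with 1344, 1976 and 2018, were lowest in Shh-MB 1, and the 6 epithelial ones, with 19.8, 22.9 and 19.0, were highest in Shh-MB 2. Whether the cell makeup of Shh-MB 1 contributed to its Id4 signal was not tested.

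**Figure D2:**
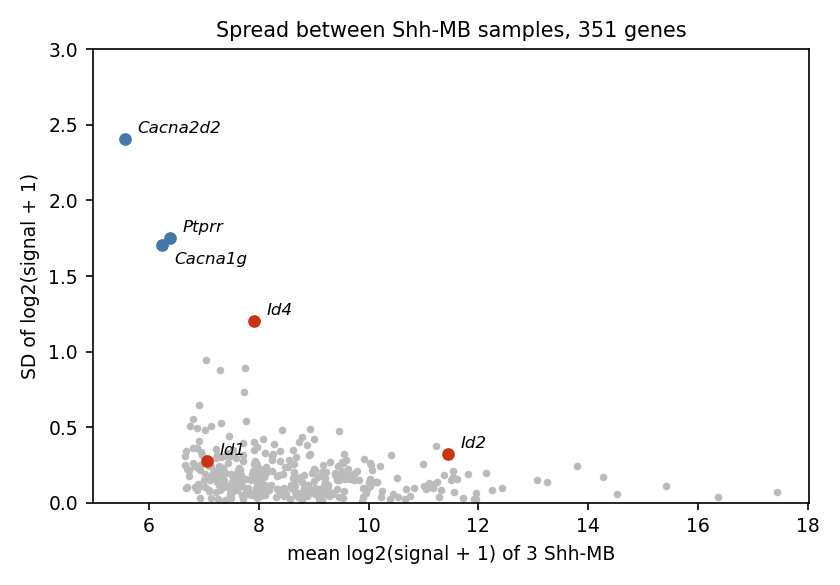
Standard deviation of log2(signal + 1) between the 3 Shh-MBs against the mean log2(signal + 1), for the 351 genes with a mean signal of at least 100 and an SD under 3. Among the genes drawn, Id4 (SD 1.20) lies above all but Cacna2d2, Ptprr and Cacna1g, and Id1 and Id2 lie in the main cloud or at its upper edge.

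Id1, the classical BMP target of the family, showed another pattern: it was similar in both kinds of eye and low in the tumors. Its signal was 1150, 1068, 1000 and 888 in the control eyes (mean 1027 ± 111, SD, n = 4). It was 841, 823, 865, 1142 and 845 in the RBS lesions (mean 903 ± 134, SD, n = 5). The 2 groups overlapped, since RBS 4 lay within the range of the control eyes while the other 4 lesions lay just below it. The difference was −0.19 (SE 0.126). In the Shh-MBs the signal was 144, 150 and 106 (mean 133 ± 24.0, SD, n = 3). Every tumor was at least 5.91-fold below the lowest control eye, and the group difference was −2.95 (SE 0.161), a 7.71-fold lower level. RBS exceeded Shh-MB by 2.76 (SE 0.164), or 6.76-fold.

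Id2, which restrains differentiation in many tissues and was described early as a partner of the retinoblastoma protein, varied least between the groups. Its signal was 2388, 2117, 2235 and 2031 in the control eyes (mean 2193 ± 155, SD, n = 4). It was 1834, 1770, 1868, 2322 and 1768 in the RBS lesions (mean 1912 ± 233, SD, n = 5), so that again only RBS 4 lay within the range of the control eyes. The Shh-MBs had 3569, 2692 and 2294 (mean 2852 ± 652, SD, n = 3), 2 of them above every eye and the third within the range of both kinds of eye. The differences were −0.20 (SE 0.106) for RBS against control eyes, 0.36 (SE 0.165) for Shh-MB against control eyes and −0.56 (SE 0.166) for RBS against Shh-MB. Without Shh-MB 1 the second was 0.18 and the third −0.39.

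In the comparison of Shh-MB with control eyes, 2 of the 3 Id genes passed the threshold, both lower, and the same number had groups that did not overlap. The shares over all genes were 41.0% past the threshold and 48.2% without overlap. The call of Id4 was lost in 13 of 18 alternatives, and its direction in none. Between RBS and Shh-MB all 3 passed, Id1 and Id4 higher and Id2 lower in RBS, and 2 had groups without overlap, against 60.8% and 59.9% of all genes. The call of Id2 was lost in 4 of 19 alternatives, among them the one without Shh-MB 1. The common scale of the samples matters for the sizes and calls of these differences. The median difference over all 770 genes was 0.17 for RBS against control eyes, −0.22 for Shh-MB against control eyes and 0.53 for RBS against Shh-MB, and centring each sample on its own median moved these medians by −0.18, 0.67 and −0.85. Under that centring the differences from control eyes in RBS were −0.37 for Id1, −0.38 for Id2 and 3.21 for Id4, and those in Shh-MB were −2.28, 1.02 and −0.90. RBS minus Shh-MB, where the shift was largest, became 1.91 for Id1, −1.41 for Id2 and 4.11 for Id4. None of the 9 differences of the Id genes changed sign in the 171 refits of the alternatives.

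Ratios within a sample do not depend on a common factor, and that of Id2 to Id1 was similar in all 9 eyes. The log2 ratio of Id2 to Id1 was 1.05, 0.99, 1.16 and 1.19 in the control eyes and 1.12, 1.10, 1.11, 1.02 and 1.07 in the RBS lesions. The mean differed between the 2 kinds of eye by only −0.01 (SE 0.0509). In RBS the SD of this ratio was 0.0409, smaller than the SD of Id1 (0.197) or of Id2 (0.164) alone. In control eyes it was 0.0949, below that of Id1 (0.158) but close to that of Id2 (0.101). RBS 4, the highest lesion for both genes, lay within 0.101 of every other lesion in the ratio. In the Shh-MBs the ratio was 4.63, 4.15 and 4.43, that is 3.30 above the control eyes (SE 0.145), with no overlap. The ratio of Id4 to Id2 was between −1.71 and −1.47 in control eyes, between 1.89 and 2.17 in RBS, and −2.67, −4.67 and −3.25 in the 3 Shh-MBs. It was thus 3.59 higher in RBS than in control eyes (SE 0.0785) and differed by −1.93 in Shh-MB (SE 0.597). The ratio of Id4 to Id1 was 3.58 higher in RBS (SE 0.0839). In Shh-MB it was 1.95, −0.52 and 1.17, with Shh-MB 2 within the range of the control eyes (−0.66 to −0.35) and the other two above it.

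**Figure D3:**
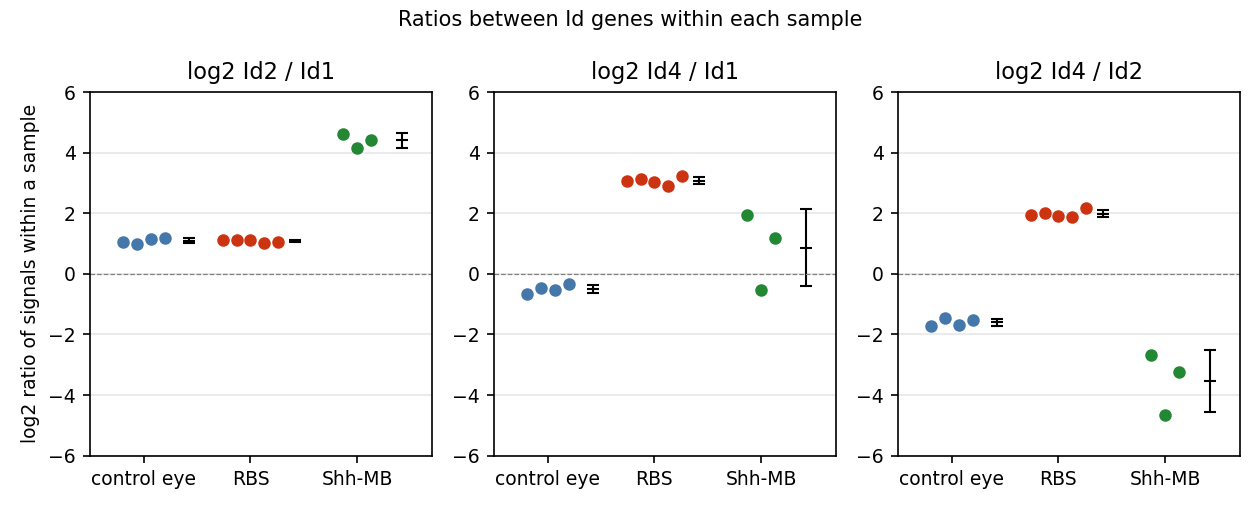
Log2 ratios of the signals of Id2 to Id1, Id4 to Id1 and Id4 to Id2 within each sample, with mean and SD beside each group (control eye n = 4, RBS n = 5, Shh-MB n = 3). The Id2 to Id1 ratio lies between 0.99 and 1.19 in all 9 eyes and between 4.15 and 4.63 in the tumors, while both ratios with Id4 set RBS apart from control eyes.

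**Figure D4:**
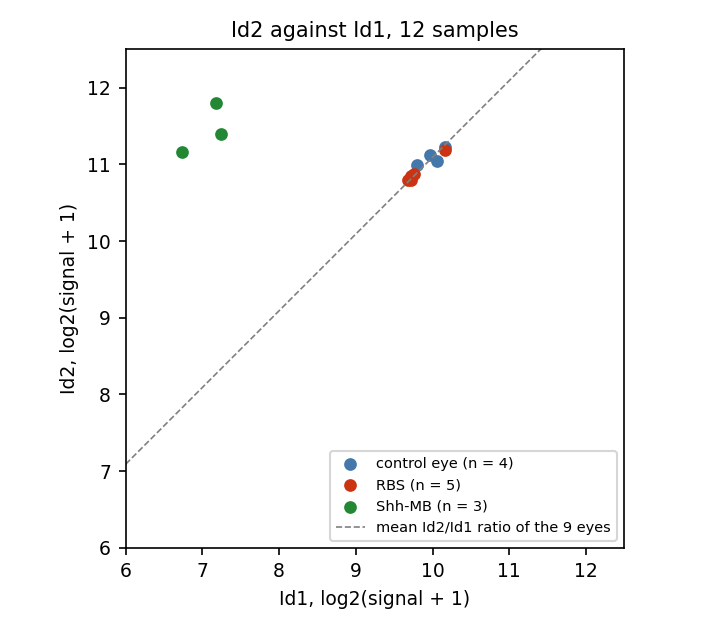
Id2 against Id1, both as log2(signal + 1), in the 12 samples; the dashed line is the mean Id2 to Id1 ratio of the 9 eyes. All control eyes (blue) and RBS lesions (red) lie along the line, and the 3 Shh-MBs (green) lie away from it at lower Id1.

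The genes with the most similar profiles were sought by the root mean square distance between log2 profiles, each centred on its own mean over the 12 samples. For Id1 the nearest were Runx1t1, a transcriptional corepressor (distance 0.188), the BMP ligand gene Bmp7 (0.201), the receptor gene Notch1 (0.278), the glypican gene Gpc4 (0.283) and Dtx4, a Deltex family gene of the Notch pathway (0.306). All 5 were low in the tumors, Bmp7 with a mean signal of 246 in control eyes, 229 in RBS and 41.4 in Shh-MB. For Id2 the nearest were Stk11 (0.174), Cdkn2d (0.174), Rpa3 (0.186), Map2k6 (0.187) and Ppia (0.188). For Id4 the distances were larger, and they grow with a gene's own spread, which was 2.15 for Id4, 1.25 for Id1 and 0.279 for Id2 as the root mean square of the centred profile, so they do not rank the 3 genes by how close their neighbors are. Its nearest were the neuronal phosphatase gene Ptpn5 and the endocytic receptor gene Lrp2 (both 0.622), then Gng4 (0.683), Baiap3 (0.840) and Prkar1b (0.865). Each of these 5 was highest in RBS, with mean signals of 136 in control eyes, 638 in RBS and 25.5 in Shh-MB for Ptpn5 and of 31.3, 203 and 3.26 for Lrp2. When only the 9 eyes were used, Id1 and Id2 were each other's nearest gene of the panel (0.0615), and the nearest gene to Id4 was Grin2b, an NMDA receptor subunit gene (0.289). Of the 5 nearest genes over the 12 samples, 0 remained among the 5 nearest in the eyes for Id1, 1 for Id2 and 1 for Id4. Bmp7 was thus no longer among those of Id1. The 12 samples form 3 groups, so these distances mainly describe the group pattern. Centring each sample on its median left the 5 nearest genes of each Id gene the same.

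BMP ligands act through type I and type II receptors on Smad1, Smad5 and Smad9, and Id genes are among the first genes to respond. Of 57 BMP and TGF-β pathway genes on a list drawn up with earlier results of these data known, 31 were on the panel. Between RBS and control eyes 8 of them rose and 5 fell, with a median of 0.06 against 0.17 over all genes. That median of 0.06 was the value of Amh, which lay at the lowest signal in every eye. The 13 of 31 past the threshold compare with 51.2% of all genes, 254 higher and 140 lower. The split was 8 higher and 8 lower under median centring and 8 higher and 10 lower under quantile normalization. Among the ligands, Bmp2 rose by 0.65 (SE 0.169, limma adjusted p = 0.0106) and the weakly detected Bmp5 by 1.76 (SE 0.446, adjusted p = 0.0093), while Bmp6 fell by 0.60 (SE 0.158, adjusted p = 0.012), and Gdf6, a BMP family ligand needed for eye development, fell by 2.18 (SE 0.380, adjusted p = 0.0012). Bmp4 (−0.30) and Bmp7 (−0.12) did not pass. Tgfb2 fell by 0.61 and Tgfb3 fell by 0.38. The secreted antagonists Nog and Fst rose by 1.26 and 1.31, and Bambi, a pseudoreceptor that dampens BMP signals and is itself induced by them, fell by 0.97. All 3 receptor genes past the threshold rose: Bmpr1b by 1.11, Acvr1b by 0.90 and Acvr2a by 1.08. Of the BMP transducers, Smad1 rose by 0.61 (SE 0.0900, adjusted p = 0.00047), Smad9 (0.30) did not pass, and Smad5 was not among the measured genes. Smad2 (0.16), Smad3 (−0.10) and Smad4 (−0.08) did not pass either. Each of the named genes that passed kept its direction under the other scalings.

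Between Shh-MB and control eyes 2 of the 31 pathway genes rose and 16 fell, with a median of −0.98 against −0.22 over all genes, of which 41.0% passed. This split depends on the scale: with the samples centred on their median it was 8 higher and 11 lower, and with quantile normalization 4 higher and 13 lower. Over all genes the split moved from 74 higher and 242 lower to 311 higher and 139 lower under median centring. Of the BMP ligands, Bmp2 fell by 2.58 (SE 0.174, limma adjusted p = 5.4e-05), Bmp4 fell by 3.57 (SE 0.408, adjusted p = 0.00051), Bmp6 fell by 2.06, Bmp7 fell by 2.54 (SE 0.119, adjusted p = 1.2e-05), and Bmp5 rose by 2.73 (SE 0.463, adjusted p = 0.0033). The antagonists Nog (−2.91), Fst (−3.77), Bambi (−1.50) and Ltbp1 (−4.67), a binding protein of latent TGF-β, all fell. For Nog and Fst 1 tumor each was at the lowest value and Fst reached at most 2.51 in the tumors, so that the sizes of these 2 differences depend on the floor. Smad3 was the other gene that rose, by 0.48, while Smad1 differed by −0.07 and did not pass. Acvr1b fell by 0.50 here but was 0.17 higher under median centring, and Smad1 was then 0.60 higher.

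**Figure D5:**
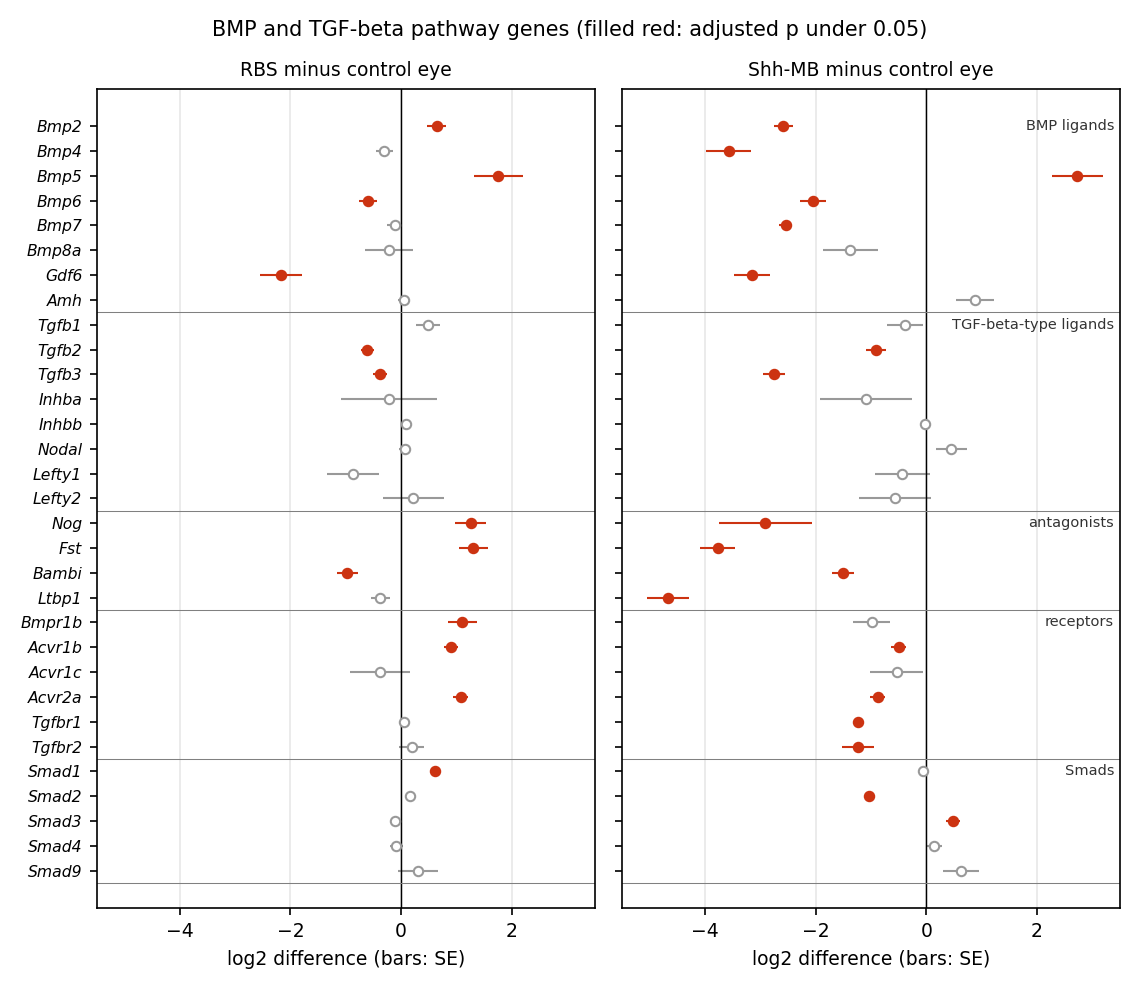
Log2 differences with SE of the 31 measured BMP and TGF-β pathway genes, RBS minus control eye on the left and Shh-MB minus control eye on the right, ordered by role; filled red points have a limma adjusted p under 0.05. RBS shows 8 genes higher and 5 lower with Bmpr1b, Acvr1b, Acvr2a and Smad1 among the higher, and Shh-MB shows 16 lower and 2 higher, Bmp5 and Smad3.

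The factors that Id proteins are known to bind or to work alongside were thinly covered. Of 23 helix-loop-helix genes on the list 3 were measured. The E protein gene Tcf3, whose product is a direct partner of Id proteins, was close to the lowest values, with means of 10.3 in control eyes, 5.77 in RBS and 9.24 in Shh-MB, and did not pass in either comparison with control eyes. The Notch effector genes Hes1 (−0.73, limma adjusted p = 0.004) and Hes5 (−0.89, adjusted p = 0.0014), bHLH repressors, fell in RBS, and both fell in Shh-MB (−2.08 and −2.82). Rb1, which encodes the retinoblastoma protein that Id2 can bind, rose by 0.45 in RBS (SE 0.104, adjusted p = 0.0059) and differed by 0.13 in Shh-MB, where it did not pass. Elk1, an ETS factor whose activity Id proteins can block, rose by 0.95 in RBS. Of the 5 measured genes on the list of such partners these 2 rose and none fell in RBS, where 51.2% of all genes passed, 254 higher and 140 lower, and Ets2 (0.33), Pax5 (−0.16) and Pax8 (−0.26) did not pass. In Shh-MB only the weakly detected Pax8 passed, and it fell (−1.68, limma adjusted p = 0.03), against 41.0% of all genes. Mycn, which can activate Id2, moved in opposite directions: it fell by 0.87 in RBS (SE 0.114, adjusted p = 0.00025) and rose by 1.50 in Shh-MB (SE 0.147, adjusted p = 0.00026).

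Of the 7 measured genes for inhibitors of cyclin-dependent kinases, some of which Id proteins are known to hold down, 1 rose and 2 fell in RBS against control eyes, where 51.2% of all genes passed, 254 higher and 140 lower. Cdkn2b, a TGF-β target, rose by 1.34 (SE 0.165, limma adjusted p = 0.00017), and Cdkn2c (−1.11) and Cdkn2d (−0.35) fell. Cdkn1a (0.19), a well known gene held down by Id proteins, did not pass. In Shh-MB Cdkn1c fell by 4.77 (SE 0.247, adjusted p = 1.9e-05), and Cdkn1b and Cdkn2c rose by 0.42 and 0.73. Of the 8 measured Notch receptor and ligand genes, 3 rose and 3 fell in RBS: Notch2 (0.74), Notch3 (1.27) and Jag2 (0.90) rose, and Dll1 (−0.34), Dll3 (−0.82) and Dll4 (−1.29) fell, against the same 51.2% of all genes. In Shh-MB 6 of the 8 fell on this scale and none rose, with a difference of −3.43 for Notch1, where 41.0% of all genes passed, 74 higher and 242 lower.

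Markers of other cell types moved with the groups as well. The summed signal of 5 measured neuronal markers was 555 to 722 in control eyes, 2224 to 2967 in RBS and 352 to 551 in Shh-MB. This sum was carried by Mapt, which was lower in Shh-MB than in control eyes by −1.02 on the log2 scale, whereas Grin1 (1.90), Grin2b (0.93) and Cacna1e (2.91) were higher there, so that 3 of the 4 markers past the threshold in Shh-MB went against the order of the groups in Id4. In RBS 4 of the 5 rose. Over all genes 41.0% passed in Shh-MB and 51.2% in RBS. Among the lesions RBS 4 and RBS 5 were the highest both for this sum (2967 and 2600) and for Id4. RBS 4 was also the highest lesion for Id1, Id2 and the immune sum, and the lowest for the mesenchymal sum. In control eyes the orders differed, with this neuronal sum highest in control eye 1 and Id4 highest in control eye 2. The 3 endothelial markers summed to 1789 to 2259 in control eyes, 695 to 988 in RBS and 129 to 235 in Shh-MB. In RBS Kdr alone fell (−1.49), and Flt1 (0.12) and Angpt2 (0.22) did not pass. The 7 mesenchymal markers summed to 24632 to 55860, 19291 to 36253 and 1344 to 2018. The tumors, in which Id1 was low, had the lowest sums of both lists, and also of the neuronal and epithelial lists. The mesenchymal sum was carried by collagen genes, and Pdgfra of the same list was 1.53 higher in Shh-MB than in control eyes (limma adjusted p = 0.005). The 6 epithelial markers ranged from 181 to 420, from 384 to 709 and from 19.0 to 22.9, with 1 of them at the lowest value in all tumors, and the 4 immune markers from 83.2 to 128, from 168 to 227 and from 111 to 228. None of the 7 glial markers was on the panel. The part of these cell types in the Id differences was not tested.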

How the data were processed

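RNA from fresh frozen tissue was hybridized to the nCounter mouse PanCancer pathways panel and counted on an nCounter SPRINT instrument. The deposited signal values are probe counts that the authors normalized in nSolver; they lie on a linear scale, with a background subtracted, a floor near 1 and 1 scaling factor per sample, as the spacing of low values shows. The background setting is not given in the sources used here, so whole counts were not recovered and no count test was run. Depth was estimated from that spacing and covers counting error only. Groups came from the sample labels. Each comparison was a 2-group limma fit (version 3.58.1, R 4.3.3) of log2(signal + 1) with a two-sided test, and p-values were adjusted over all 770 genes by Benjamini and Hochberg at 0.05. The fit was tested on simulated data. The Id genes, the gene lists and the alternatives (pseudocount, 3 scalings, low-value filters, limma settings, an unequal-variance t-test like that of the methods but without their permutations, replicate block, each left-out sample) were chosen with earlier results of these data known. Named are the Id genes, measured genes of the lists, the 5 genes nearest in profile to each Id gene, 3 genes that spread more than Id4 in Shh-MB (a further one is not reported here), and Ctnnb1 and Smo. All 770 symbols matched RefSeq, 760 directly and 10 by synonym.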

Additional observations from a re-analysis of the deposited data

Results flagged for a closer look

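RBS 4 stood apart from the other 4 RBS lesions for 2 Id genes. Its Id1 signal of 1141.55 lay above the others by 0.867 of the range of the group, and its Id2 signal of 2321.61 by 0.820, both beyond Dixon's critical value for a group of 5. For Id4 the same lesion was also the highest, at 8581, but within that limit. Of 6 groups examined 2 passed. Chance flags about 1 in 20 groups, but these 2 are the same lesion in genes whose ratio varied little in RBS, and the genes were chosen with their values known, so the count is not set against that rate. Without RBS 4 the RBS difference from control eyes was −0.28 for Id1, −0.27 for Id2 and 3.34 for Id4.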

How the results depend on the processing

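Over 18 to 20 alternatives each, the 9 differences of the Id genes kept their direction, and 145 of 171 values stayed on the same side of the threshold; what made the others change was not tested, except where named. Median centring gave −0.37 (Id1) and −0.38 (Id2) in RBS against control eyes and 1.02 (Id2) and −0.90 (Id4) in Shh-MB against control eyes, the first 3 past the threshold and the last no longer. It turned Acvr1b to 0.17 and Smad1 to 0.60 in Shh-MB. Quantile normalization gave −0.39 for Id1 in RBS, now past the threshold, and −1.18 for Id4 in Shh-MB, no longer past it. Because it does not keep ratios within a sample, it also moved Id4 to Id2 to 3.47 and turned Id2 to Id1 to 0.14 (RBS against control eyes), and moved Id2 to Id1 to 3.03 (Shh-MB against control eyes) and −2.88 (RBS against Shh-MB). A total that leaves out the 3 genes of highest signal, used as the scale, gave 0.67 for Id2, now past the threshold, and −1.26 for Id4 in Shh-MB. With values under 20 set to 20, Pax8 in Shh-MB was at 0, as all its values lie below that. The Id4 difference in Shh-MB was −1.57 and not past the threshold with values under 20 set to 20 and with an unequal-variance t-test, either adjusted by Benjamini and Hochberg or by step-down Bonferroni; the methods name an adjusted Bonferroni correction with permutations, which were not run here. With that t-test Id2 in RBS against Shh-MB (−0.56) was lost too. Step-down Bonferroni left 72, 36 and 80 genes over the panel and 1, 3 and 8 pathway genes in the 3 comparisons, and it also lost Id1 at −2.95 and 2.76 and Id4 at 4.96 in the comparisons with Shh-MB.

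Replicate numbers gave no sign of pairing: over 10 same-numbered pairs the deviations from group means correlated between −0.15 and 0.19, and 2 pairs exceeded 0.1. Pairs with different numbers ran from −0.26 to 0.20. Such correlations cannot tell whether samples shared a litter or a run. With the replicate block Id4 in Shh-MB was −1.58 and Id2 in RBS against Shh-MB −0.62, neither past the threshold, and no other Id call changed. Leaving out 1 sample gave −0.27 to −0.16 for Id2 in RBS against control eyes, past the threshold only without RBS 4, −2.17 to −0.97 for Id4 in Shh-MB, past it only without Shh-MB 1, and −0.70 to −0.39 for Id2 in RBS against Shh-MB, lost only without Shh-MB 1. The Id2 to Id1 ratio difference between RBS and control eyes, close to 0, ranged from −0.0496 to 0.0188, with values of 0.003 without RBS 4, 0.0081 without control eye 3 and 0.019 without control eye 4. With 3 tumors, Id4 in Shh-MB is the least certain of these values.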
